A study of Mus musculus with 20 samples.

Results

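The apolipoprotein genes described here are *Apob*, *Apoa1*, *Apoa2*, *Apoa4*, *Apoa5*, *Apoc1*, *Apoc2*, *Apoc3*, *Apoe* and *Apom*, which are 10 of the 50559 genes in the count table. They were chosen by symbol, all 10 were found, and all 10 passed the filter on low counts in every comparison. The samples were whole livers of 20 mice on a C57BL/6 background, every one of them homozygous for a floxed *Cideb* allele (*Cideb* fl/fl). WT mice were injected with AAV-TBG-GFP. KO mice were given AAV-TBG-Cre, a virus in which the hepatocyte promoter TBG drives Cre, so that *Cideb* is deleted in hepatocytes and not in other liver cells. Both vectors were given at 6 weeks of age. The 4 groups of 5 livers each were WT on WD, KO on WD, WT on CDA-HFD and KO on CDA-HFD. WD is a high-sugar, high-fat, high-cholesterol diet. CDA-HFD is a high-fat diet without choline, which the study's methods call deficient in methionine as well. The labels give 3 months for both diets, whereas the study's methods give 24 weeks for WD and 12 weeks for CDA-HFD, so diet and feeding time cannot be told apart. Values per liver are TMM-normalized CPM (counts per 1e6 reads counted on genes), scaled over the 20 livers, and groups were compared with edgeR (quasi-likelihood F test, p adjusted by Benjamini-Hochberg over all genes tested), a gene being called at an adjusted p under 0.05.

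Apolipoproteins are the proteins that coat lipoprotein particles, and the liver makes most of them. APOB is the scaffold on which very low density lipoprotein (VLDL) is built in the endoplasmic reticulum, one APOB per particle, and CIDEB is a lipid droplet protein that also sits on that membrane and takes part in loading lipid onto VLDL. The smaller, exchangeable apolipoproteins move between particles. APOA1 and APOA2 are proteins of high density lipoprotein (HDL), the APOC proteins and APOA5 tune lipoprotein lipase, and APOE hands remnants to their receptors. Phosphatidylcholine, a phospholipid that contains choline, lies on the surface of VLDL.

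*Apoa1*, *Apoc3*, *Apoa4* and *Apoa5* lie together within 43340 bases of chromosome 9 (GRCm38, the build that the submitters' processing notes name mm10, chr9:46228580-46271919). *Apoe*, *Apoc1* and *Apoc2* lie with *Apoc4* within 27610 bases of chromosome 7 (chr7:19671579-19699188). *Apob*, *Apoa2* and *Apom* lie alone on chromosomes 12, 1 and 17. The sequence just upstream is shown for 3 genes of the chromosome 9 cluster, whose levels between groups are set out one by one further on, each cut to the bases before both the RefSeq and the GENCODE start. They are taken from RefSeq (GRCm38.p6), all on the plus strand, 5′ to 3′, and capitals mark a motif match. The *Apoa1* window is chr9:46228380-46228579, the *Apoa4* window is chr9:46240594-46240695 and the *Apoa5* window is chr9:46268358-46268607.
Apoa1: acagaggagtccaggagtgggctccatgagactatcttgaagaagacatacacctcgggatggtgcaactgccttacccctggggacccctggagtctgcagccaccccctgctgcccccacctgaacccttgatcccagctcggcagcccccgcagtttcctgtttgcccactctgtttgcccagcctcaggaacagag
Apoa4: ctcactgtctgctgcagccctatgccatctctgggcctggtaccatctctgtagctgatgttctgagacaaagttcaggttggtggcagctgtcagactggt
Apoa5: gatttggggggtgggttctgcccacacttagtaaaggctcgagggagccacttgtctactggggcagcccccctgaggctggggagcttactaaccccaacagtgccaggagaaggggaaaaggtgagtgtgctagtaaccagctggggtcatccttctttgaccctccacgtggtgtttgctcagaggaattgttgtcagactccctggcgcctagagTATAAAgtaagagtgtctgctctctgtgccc
The motifs searched on both strands of the 250 bases before each RefSeq start were TATAAA (the TATA box), CCAAT, CAAAGTCC (an HNF4-type element) and TGACGT (the core of a cAMP response element), none of which contains another. Of 32851 mouse promoters of that length, 12.4% held TATAAA, 33.85% held CCAAT, 1.20% held CAAAGTCC and 6.47% held TGACGT. The *Apoa5* window held TATAAA, beginning 31 bases before the RefSeq start. In the 250 bases before the RefSeq start, *Apoa1* and *Apoa4* held no match to any of the 4 motifs. Of these, only the 200 (*Apoa1*) and 102 (*Apoa4*) bases printed above also lie before the GENCODE start. Promoter sequences were found for 8 of the 10 genes, and *Apoc1* and *Apoc3* had no entry. Among the genes not printed, *Apob* held TATAAA 60 bases before a RefSeq start, and *Apoe* held it 100 and 96 bases before one. *Apoa2* held TATAAA and CCAAT, 212 and 164 bases before one start, and CCAAT 128 bases before another.

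The depth was 11697049 to 16827147 reads on genes in a liver. *Cideb*, the targeted gene, was at 4.77 to 7.55 CPM in WT livers on WD and 2.22 to 3.82 CPM in WT livers on CDA-HFD, and at no more than 0.398 CPM in any KO liver, as the labels say. *Nop9*, on the opposite strand and also counted, shares 76.3% of the *Cideb* exon bases. Whether the counting used strand is not given, and without strand, reads on these shared bases would be left uncounted. The hepatocyte markers *Alb* (albumin) and *Ttr* (transthyretin) were abundant in all livers, at 23910 CPM or more and 1027 CPM or more. KO CDA-HFD liver 5 stood apart from the other 4 livers of its group. *Gpnmb*, a marker of lipid-laden macrophages, was at 698 CPM in this liver against 36.1 to 70.5 CPM in the other 4, and 462 to 1348 CPM in WT livers on CDA-HFD. Its values of the 10 genes were also known when it was singled out. Comparisons of the 10 genes that include this liver are given with and without it where a call, a direction or a count changes, and for single genes also in the plot of values with and without it. Each label names a separate liver, and the p-values measure the spread between livers within the groups compared. Each diet was fed to its own set of mice. Differences between these sets other than diet cannot be told apart from diet, and the p-values do not measure them.

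The 10 genes together took 4.54 ± 0.201% of the reads counted on genes in WT livers on WD (mean ± SD, n = 5) and 4.11 ± 0.0833% in the KO group on that diet. On CDA-HFD the share was 3.43 ± 0.393% in WT livers and 3.72 ± 0.469% in KO livers, or 3.92 ± 0.184% (n = 4) without KO CDA-HFD liver 5. *Apob* alone made up 44.2 ± 1.41% of these reads in WT livers on WD, and *Apoe* 25.0 ± 1.28%. Per length of merged exon the order was different. In WT livers on WD, *Apoa2* had the highest level per length, at 6258 ± 970 CPM per kb, followed by *Apoe* at 5885 ± 302 CPM per kb, and the ranges of these neighbours overlapped within 1 SD. *Apoa1* was at 3540 ± 515 CPM per kb, and *Apoa4*, *Apoc1* and *Apob* followed at 2197 ± 969, 1875 ± 333 and 1600 ± 102 CPM per kb, within the spread of *Apoa4*. *Apoc3* was at 806 ± 50.8 and *Apoa5* at 596 ± 35.4 CPM per kb. *Apom* was at 47.0 ± 6.65 CPM per kb and *Apoc2* at only 6.66 ± 0.980 CPM per kb. The low level of *Apoc2* is uncertain, because 79.5% of its exon bases are shared on the same strand with the readthrough gene *Gm44805*, and reads that overlap more than 1 gene are left uncounted in a table of this form. *Gm44805* had 0 counts in all 20 livers, and *Apoc2* had only 37 to 138 counts per liver.

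**Figure D1:**
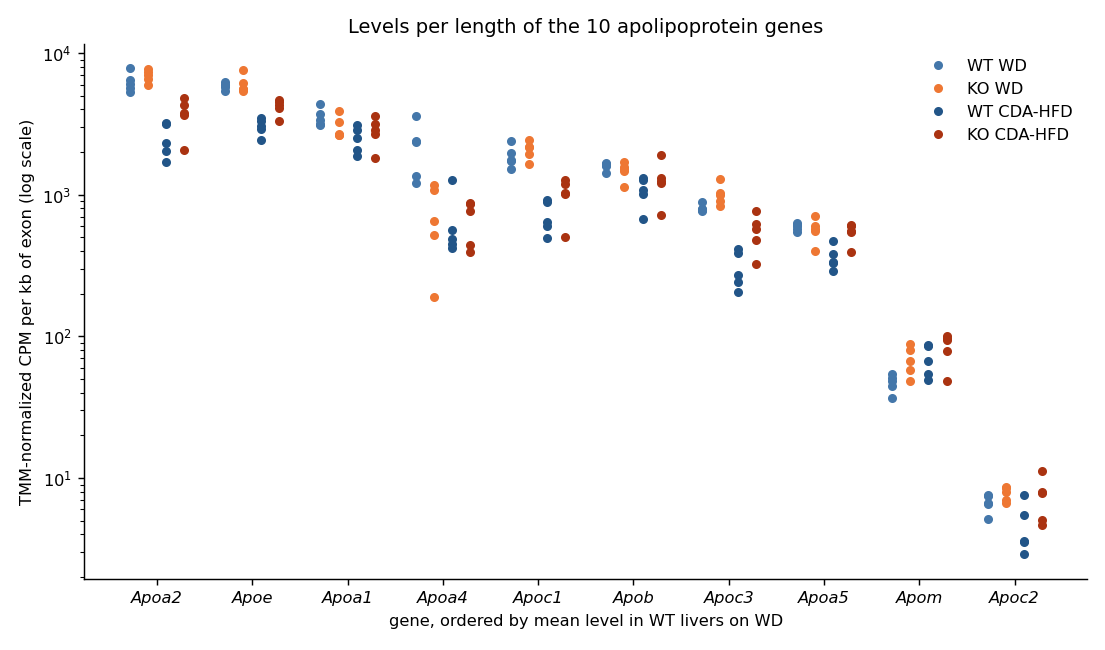
Each point is 1 liver, the y axis is TMM-normalized CPM per kb of merged exon on a log scale, and the genes are ordered by their mean level in WT livers on WD, with the 4 groups in colour. *Apoa2* and *Apoe* lie highest and *Apoc2* lowest, at 6.66 CPM per kb in WT livers on WD.

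There were 4 comparisons, KO against WT on each diet and CDA-HFD against WD in each genotype. They share groups: WT livers on WD enter 2 of them, and so does each other group, so their values are not independent. On WD, 0 of the 10 genes were called in KO against WT livers, where 0.0757% of the 15848 genes tested were called in either direction (12 genes). Of the 10, 3 had an unadjusted p under 0.05 by edgeR, as had 1702 of the 15848 genes. DESeq2 called 1 of the 10, and 164 genes over the whole table. On CDA-HFD, 2 of the 10, *Apoc3* and *Apoa5*, were higher in KO than in WT livers and 0 were lower, where 8.19% of 17204 genes were called higher and 15.5% in either direction. The fitted difference was positive for all 10, with a median log2 fold change of 0.48 against 0.00500 over all genes tested. With libraries scaled by their size only, 0 of the 10 were called, *Apoa1* and *Apoa4* turned negative, and the median over all genes shifted by -0.19.

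Between diets in WT livers, 7 of the 10 genes were lower on CDA-HFD than on WD, where 25.2% of 16726 genes were called lower, and *Apom* alone was higher, where 25.9% were called higher and 51.1% in either direction. The median log2 fold change of the 10 was -0.84 against -0.0031 over all genes tested. In KO livers, 3 of the 10, *Apoa2*, *Apoc1* and *Apoc3*, were lower on CDA-HFD and 0 were higher, where 7.85% of 16387 genes were called lower and 17% in either direction. With libraries scaled by size only, the median of all genes rose by 0.42 in WT livers and by 0.25 in KO livers. The split over all genes then moved from 4335 higher and 4207 lower to 9101 and 1574 in WT livers, and from 1506 and 1286 to 3370 and 558 in KO livers. Under that scaling 6 of the 10 were still called lower in WT livers and 3 in KO livers, with *Apom* called higher in both. For KO against WT on CDA-HFD the same scaling moved the split from 1409 higher and 1255 lower to 523 and 1202.

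**Figure D2:**
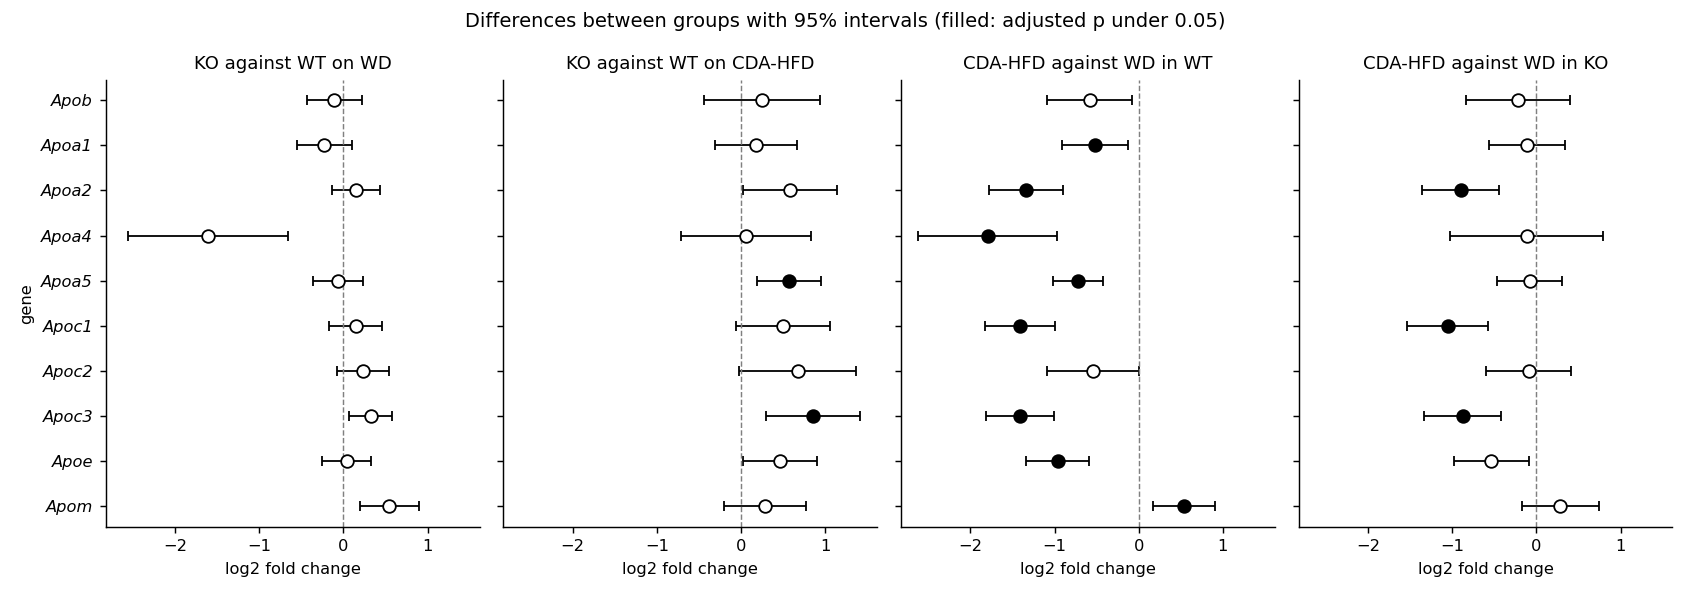
Points are log2 fold changes from edgeR and bars are 95% intervals, with 1 panel for each comparison and filled points for an adjusted p under 0.05. On WD no point is filled and *Apoa4* lies farthest from 0, at -1.61. In WT livers 7 genes lie below 0 and *Apom* above it among the filled points.

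The groups did not overlap at all, every liver of one above every liver of the other, for 1 of the 10 genes in KO against WT on WD (2.22% of all genes tested), 0 in KO against WT on CDA-HFD (9.58%), 6 between diets in WT livers (37.1%) and 4 between diets in KO livers (15.2%). Without KO CDA-HFD liver 5 it was 5 of the 10 in KO against WT on CDA-HFD, where 33.8% of all genes tested did not overlap, and again 4 between diets in KO livers (18.2%). This liver alone lay within the WT range for these 5 genes, and it was singled out with their values known. The loss of overlap without it is thus given by construction.

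*Apoa4* had the largest fitted difference of the 10 between KO and WT livers on WD. APOA4 is secreted by intestine and liver and rides on triglyceride-rich particles and HDL. It was at 4308, 6574, 2209, 2481 and 4367 CPM in the 5 WT livers and at 1951, 1179, 2117, 342 and 942 CPM in the 5 KO livers on WD. Every KO liver was below every WT liver, although the highest KO liver was close to the lowest WT liver. The mean was 3.05-fold lower in KO livers, 1306 ± 733 against 3988 ± 1759 CPM (SD, n = 5). The log2 fold change was -1.61 ± 0.437 (SE, 95% interval -2.56 to -0.66), with an unadjusted p of 0.00308 and an adjusted p of 0.254 by edgeR, so it was not called. Of the 15848 genes tested, 29 had a larger fall. The exact two-sided permutation test gave p = 0.00794, the smallest that 5 livers against 5 allow, as 1 of 40 such tests and unadjusted. DESeq2 called *Apoa4* lower (log2 fold change -1.62, adjusted p = 0.0449), and over all alternatives the adjusted p ran from 0.0449 to 0.551.

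On CDA-HFD, *Apoa4* was at 1030, 814, 883, 758 and 2307 CPM in WT livers and at 1384, 1561, 1587, 711 and 802 CPM in KO livers. WT liver 5 was the only WT liver above all KO livers, and the groups overlapped. The log2 fold change of KO against WT was 0.060 (95% interval -0.71 to 0.83, edgeR adjusted p = 0.918), and 0.18 with adjusted p = 0.71 without KO liver 5. Between diets, *Apoa4* was 3.44-fold lower on CDA-HFD in WT livers (log2 fold change -1.79 ± 0.379, SE, edgeR adjusted p = 0.00210). In KO livers the log2 fold change was -0.12 (95% interval -1.03 to 0.80, edgeR adjusted p = 0.877), and -0.0016 without KO CDA-HFD liver 5 (edgeR adjusted p = 0.999). The difference between the KO effects on the 2 diets was 1.67 ± 0.600 on the log2 scale (SE, edgeR interaction, unadjusted p = 0.0115, adjusted p = 0.201) and did not pass the threshold, where 0.556% of 17804 genes did. Without KO CDA-HFD liver 5 it was 1.79 (edgeR adjusted p = 0.0597). The predicted genes on the opposite strand, *Gm10680* and *Gm47528*, share 69.8% of the *Apoa4* exon bases and are not rows of the table. The labels name a directional NEBNext kit and the study's methods a Nugen Ovation kit, and whether the counting used strand is not given in the sources used here. Without strand, reads from these partners cannot be told apart from *Apoa4*.

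**Figure D3:**
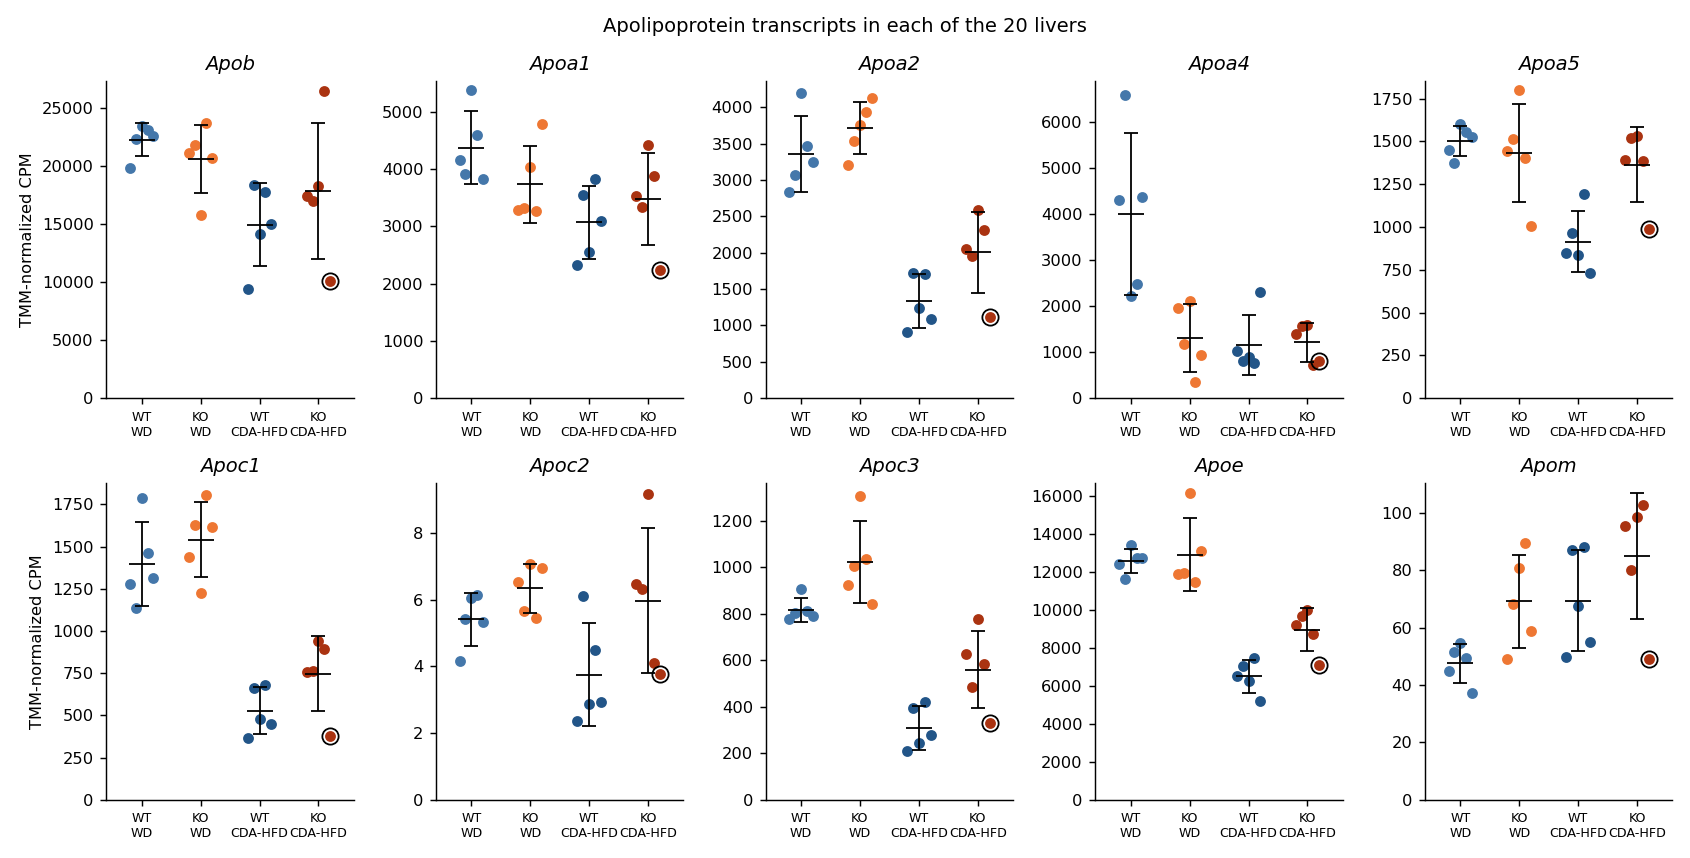
Each point is 1 liver, bars are the mean ± SD of 5 livers, the y axis is TMM-normalized CPM from 0 with its own scale in each panel, and the circled point is KO CDA-HFD liver 5. *Apoa4* on WD shows the highest KO liver at 2117 CPM and the lowest WT liver at 2209 CPM.

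*Apoa5* and *Apoc3* neighbour *Apoa4* and act in opposite ways on lipoprotein lipase in plasma, APOA5 raising triglyceride clearance and APOC3 slowing it. Both were called higher in KO than in WT livers on CDA-HFD. *Apoa5* was at 850, 962, 836, 1194 and 732 CPM in WT livers and at 1393, 1522, 1532, 1387 and 988 CPM in KO livers on CDA-HFD. The KO livers other than liver 5 all lay above the WT livers, and liver 5 lay among them. The mean was 1.49-fold higher in KO livers (log2 fold change 0.57 ± 0.174, SE, edgeR adjusted p = 0.0478). Without liver 5 the log2 fold change was 0.67 (edgeR adjusted p = 0.00500), and leaving out each liver in turn kept the call in 2 of 10 fits. On WD, *Apoa5* was at 1452, 1376, 1602, 1553 and 1528 CPM in WT livers and at 1443, 1514, 1800, 1403 and 1006 CPM in KO livers. These groups overlapped throughout (log2 fold change -0.066, 95% interval -0.36 to 0.23, edgeR adjusted p = 0.899).

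Between diets, *Apoa5* was 1.64-fold lower on CDA-HFD in WT livers with no overlap between groups (log2 fold change -0.72 ± 0.138, SE, edgeR adjusted p = 0.00111). In KO livers it was 1365 ± 221 CPM on CDA-HFD and 1433 ± 285 CPM on WD (SD, n = 5, log2 fold change -0.078, edgeR adjusted p = 0.795, and 0.015 without liver 5). The difference between the KO effects on the 2 diets was 0.64 ± 0.221 (SE, edgeR interaction, unadjusted p = 0.00866, adjusted p = 0.182), and 0.74 with adjusted p = 0.0251 without KO CDA-HFD liver 5. In the fit without that liver the interaction calls over all genes rose from 99 to 2139. *Gm47544*, on the opposite strand and not a row of the table, shares 20.8% of the *Apoa5* exon bases.

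*Apoc3* was at 209, 394, 244, 419 and 276 CPM in WT livers and at 626, 485, 776, 582 and 329 CPM in KO livers on CDA-HFD. As for *Apoa5*, the KO livers other than liver 5 lay above every WT liver. The mean was 1.82-fold higher in KO livers (log2 fold change 0.86 ± 0.255, SE, edgeR adjusted p = 0.0451). Without liver 5 the log2 fold change was 1.00 (edgeR adjusted p = 0.00417), and leaving out each liver in turn kept the call in 3 of 10 fits. On WD, *Apoc3* was at 779, 803, 907, 810 and 789 CPM in WT livers and at 922, 1004, 1308, 1035 and 840 CPM in KO livers. Only KO liver 5 lay within the WT range on WD, and the log2 fold change of 0.32 ± 0.118 (SE) had an unadjusted p of 0.0179 and an adjusted p of 0.361 by edgeR. Between diets, *Apoc3* was 2.65-fold lower on CDA-HFD in WT livers (edgeR adjusted p = 0.000105) and 1.82-fold lower in KO livers (edgeR adjusted p = 0.0178), and in both genotypes the diets did not overlap.

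*Apoc1* and *Apoc2* complete the C group. APOC1 hinders the uptake of remnants, and APOC2 is the cofactor that lipoprotein lipase needs. *Apoc1* was at 1279, 1136, 1788, 1460 and 1312 CPM in WT livers and at 1437, 1625, 1223, 1806 and 1613 CPM in KO livers on WD. With CDA-HFD it was at 368, 664, 480, 680 and 449 CPM in WT livers and at 757, 765, 943, 893 and 377 CPM in KO livers. In both genotypes every liver on CDA-HFD was below every liver on WD. The fall was 2.64-fold in WT livers (log2 fold change -1.41 ± 0.191, SE, edgeR adjusted p = 0.000131) and 2.06-fold in KO livers (log2 fold change -1.05 ± 0.221, SE, edgeR adjusted p = 0.0104). KO against WT gave 0.15 on WD (edgeR adjusted p = 0.750) and 0.49 on CDA-HFD (edgeR adjusted p = 0.187), the latter 0.66 with adjusted p = 0.0146 without liver 5. *Apoc2*, at 2.35 to 9.16 CPM across all livers, passed in none of the comparisons. Its largest log2 fold change was 0.67 for KO against WT on CDA-HFD (95% interval -0.019 to 1.36, edgeR adjusted p = 0.151), and 0.81 with adjusted p = 0.0479 without liver 5.

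*Apoa1*, *Apoa2* and *Apom* encode HDL proteins. APOA1 is the main protein of HDL and activates LCAT, APOA2 is the second most abundant HDL protein, and APOM binds sphingosine 1-phosphate. *Apoa2* was at 2838, 3062, 4197, 3465 and 3242 CPM in WT livers and at 3202, 3536, 3757, 3934 and 4134 CPM in KO livers on WD. With CDA-HFD it was at 913, 1727, 1243, 1703 and 1092 CPM in WT livers and at 2045, 1958, 2584, 2315 and 1111 CPM in KO livers. In both genotypes the diets did not overlap, and on CDA-HFD KO liver 5 lay within the WT range while the other 4 KO livers lay above it. The fall on CDA-HFD was 2.52-fold in WT livers (log2 fold change -1.34 ± 0.202, SE, edgeR adjusted p = 0.000248) and 1.85-fold in KO livers (log2 fold change -0.90 ± 0.211, SE, edgeR adjusted p = 0.0169). KO against WT on CDA-HFD gave 0.58 (edgeR adjusted p = 0.131), and 0.73 with adjusted p = 0.0147 without liver 5.

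*Apoa1* differed less. It was at 4167, 3911, 5382, 4590 and 3825 CPM in WT livers on WD and at 2329, 3556, 2551, 3828 and 3086 CPM in WT livers on CDA-HFD, with 1 liver on CDA-HFD just above the lowest on WD. The log2 fold change was -0.52 ± 0.179 (SE, edgeR adjusted p = 0.0303), and leaving out each liver in turn kept the call in 5 of 10 fits. In KO livers *Apoa1* was at 3737 ± 674 CPM on WD and 3478 ± 807 CPM on CDA-HFD (SD, n = 5, log2 fold change -0.11, edgeR adjusted p = 0.746, and 0.0084 without liver 5). KO against WT gave -0.23 on WD (95% interval -0.55 to 0.098, edgeR adjusted p = 0.610) and 0.17 on CDA-HFD (edgeR adjusted p = 0.600). *Apom* went the other way between diets. It was at 45.1, 51.7, 54.6, 49.3 and 37.3 CPM in WT livers on WD and at 49.8, 86.9, 67.4, 88.1 and 55.0 CPM in WT livers on CDA-HFD, a 1.46-fold higher mean with overlap (log2 fold change 0.54 ± 0.168, SE, edgeR adjusted p = 0.0187). In KO livers on WD it was at 49.1, 68.3, 80.7, 89.4 and 58.9 CPM, also 1.46-fold above WT livers on WD, with an unadjusted p of 0.00531 and an adjusted p of 0.279 by edgeR. In KO livers on CDA-HFD it was at 95.3, 80.0, 98.5, 103 and 48.9 CPM, where liver 5 was the lowest.

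*Apoe* encodes the ligand by which remnants are taken up through the LDL receptor and LRP1. It was at 12400, 11630, 13410, 12740 and 12730 CPM in WT livers and at 11870, 11920, 16150, 11490 and 13120 CPM in KO livers on WD. With CDA-HFD it was at 6500, 7070, 6250, 7440 and 5213 CPM in WT livers and at 9221, 9663, 10010, 8755 and 7119 CPM in KO livers. In both genotypes every liver on CDA-HFD was below every liver on WD, and on CDA-HFD only KO liver 5 lay within the WT range. The fall on CDA-HFD was 1.94-fold in WT livers (log2 fold change -0.96 ± 0.171, SE, edgeR adjusted p = 0.000710). In KO livers it was -0.53 ± 0.204 on the log2 scale (SE, edgeR adjusted p = 0.0907) and not called, and -0.47 with adjusted p = 0.0570 without liver 5. KO against WT on CDA-HFD gave 0.46 (edgeR adjusted p = 0.127), and 0.53 with adjusted p = 0.0330 without liver 5.

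*Apob*, the scaffold of VLDL, passed in none of the 4 comparisons as fitted. On WD it was at 19880 to 23470 CPM in WT livers and at 15790 to 23690 CPM in KO livers. On CDA-HFD it was at 9380, 18390, 14130, 17730 and 15050 CPM in WT livers and at 17390, 17000, 18290, 26490 and 10080 CPM in KO livers. KO livers on CDA-HFD thus spread over a wider range than any other group, with liver 5 lowest and liver 4 highest. In WT livers every liver on CDA-HFD was below every liver on WD, and the log2 fold change of -0.58 ± 0.233 (SE) had an adjusted p of 0.0541 by edgeR. Of 18 alternatives, 5 called it lower there, with adjusted p from 0.00124 to 0.348 over all of them. KO against WT gave 0.25 on CDA-HFD (95% interval -0.44 to 0.94, edgeR adjusted p = 0.594), and 0.40 with adjusted p = 0.247 without liver 5.

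**Figure D4:**
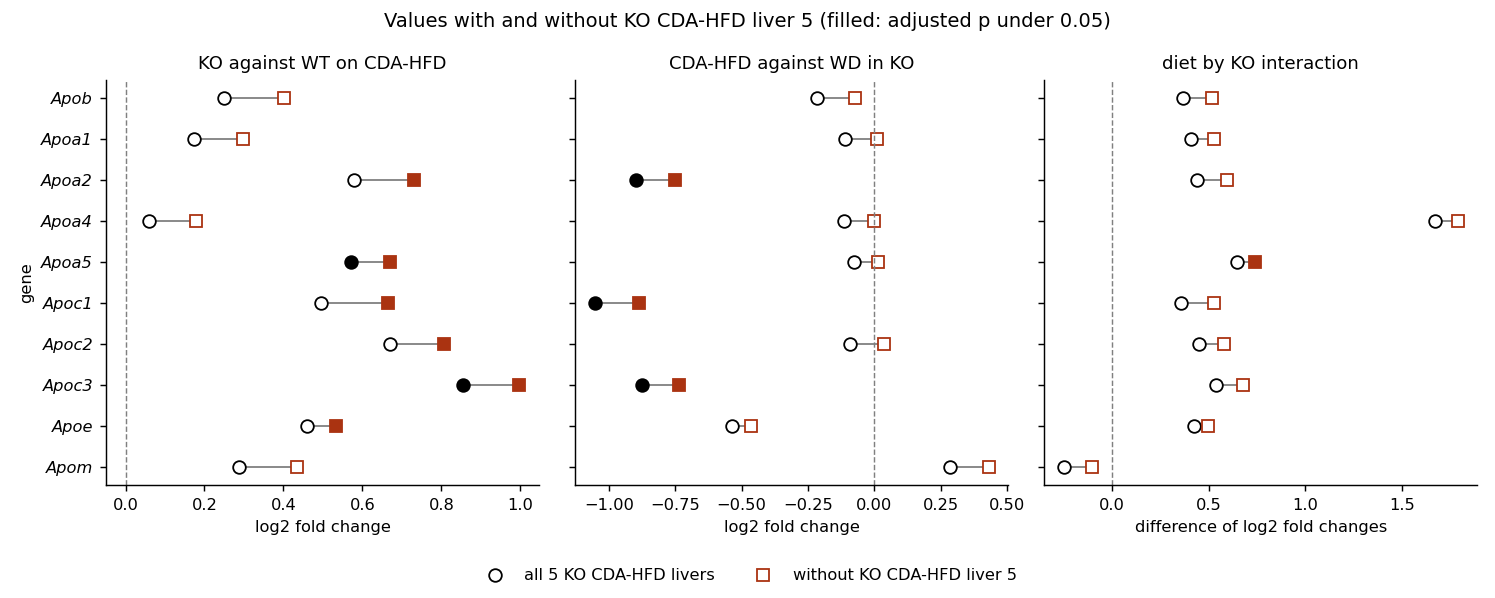
Circles are values with all 5 KO CDA-HFD livers and squares without liver 5, in log2 units, and filled points have an adjusted p under 0.05. In KO against WT on CDA-HFD the filled points go from 2 to 6, and between diets in KO livers the same 3 genes are filled either way.

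Leaving out KO CDA-HFD liver 5 raised the genes called in KO against WT on CDA-HFD from 2 to 6 of the 10, all higher in KO livers, while the count over all genes rose from 2664 to 7202 and the share called higher from 8.19% to 19.6%. Between diets in KO livers 3 of the 10 were lower with or without it, where 8.37% of all genes were called lower without it. The liver was singled out after its values were seen, those of the 10 genes among them. It lay within the range of WT livers on CDA-HFD for *Apoa2*, *Apoa5*, *Apoc1*, *Apoc3* and *Apoe*. Leaving it out therefore widens these differences by construction, and the added calls are no separate support for them. Other cell types moved with these groups, and since RNA was taken from whole liver, fewer hepatocytes and less RNA per hepatocyte cannot be told apart. The summed level of 13 of 14 hepatocyte markers was 66500 to 114100 CPM on WD and 38260 to 81350 CPM on CDA-HFD in WT livers. Most of this sum was *Alb*, at 42190 to 73790 CPM on WD and 23910 to 52790 CPM on CDA-HFD. *Alb* was not called between diets in WT livers (edgeR adjusted p = 0.125). Of the 13 markers, 6 were called lower there and 1 higher, where 25.2% of all genes were lower and 25.9% higher. The sum of 20 macrophage markers ran from 723 to 2227 CPM and from 2936 to 5592 CPM in the same groups. For 12 stellate cell markers it ran from 678 to 1306 CPM and from 2448 to 4001 CPM. For 8 cholangiocyte markers it ran from 36.2 to 170 CPM and from 383 to 835 CPM. For 11 lymphocyte markers it ran from 33.9 to 89.3 CPM and from 110 to 159 CPM. For 10 endothelial markers it was lower on CDA-HFD, from 897 to 953 CPM and from 657 to 762 CPM. In KO livers on CDA-HFD the macrophage sum was 3625 CPM in liver 5 and 1069 to 1413 CPM in the other 4. *Clec4f*, a macrophage marker of the same list, went the other way, at 25.7 CPM in liver 5 and 121.6 to 150.6 CPM in the other 4. The hepatocyte sum was 42010 CPM in liver 5 and 81940 to 114000 CPM in the other 4. The stellate cell sum was 4199 CPM in liver 5 and 1365 to 1562 CPM in the other 4. The cholangiocyte sum was 681 CPM against 72.1 to 181 CPM, and the lymphocyte sum 128 CPM against 51.4 to 69.9 CPM. The endothelial sum was lower in liver 5, at 612 CPM against 906 to 1039 CPM. No hepatocyte or macrophage marker with a row in the table was at 0 in a whole group. Of the tested markers in KO against WT on CDA-HFD, 2 of 13 hepatocyte markers were higher, and 9 of 20 macrophage markers were lower and 1 higher, where 8.19% of all genes were called higher and 7.29% lower. Without liver 5 these were 6 of 13 hepatocyte markers higher, and 14 of 20 macrophage markers lower and 3 higher. Over all genes, 3407 of 17411 were then called higher and 3795 lower. The part of these cell types in the differences of apolipoprotein genes was not tested.

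Genes that act on apolipoproteins were counted in the same fits. On WD, the only one called among the lists below was *Cideb* itself, lower in KO livers (log2 fold change -5.12, edgeR adjusted p = 0.000766). In KO against WT on CDA-HFD, 8.19% of all genes tested were called higher and 7.29% lower. Of 27 transcription factors known to act on apolipoprotein genes, 8 were higher and 0 lower, with *Foxa2* at 1.61 (edgeR adjusted p = 0.00733) and *Mlxipl*, the carbohydrate-responsive factor ChREBP, at 1.08 (edgeR adjusted p = 0.0132). Of 18 genes of lipoprotein assembly and export, 3 were higher and 1, *Cideb*, lower. Of 11 HDL remodelling genes 3 were higher and 0 lower, and of 13 other apolipoprotein genes 4 were higher and 0 lower. Of 13 receptor and uptake genes, 0 were higher and 2 lower, the fatty acid transporter *Cd36* at -0.89 (edgeR adjusted p = 0.0105) and *Sort1* (sortilin, which binds APOB) at -0.91 (edgeR adjusted p = 0.0280). Of 7 genes of lipoprotein lipase and its regulators, 1 was lower, *Lpl* (lipoprotein lipase) itself, at -2.30 (edgeR adjusted p = 0.0142). *Lpl* and *Sort1* were added for this comparison after their values were seen. Without KO CDA-HFD liver 5 the counts higher and lower were 16 and 0 of 27, 10 and 1 of 18, 6 and 1 of 11, 8 and 2 of 13, 4 and 3 of 13, and 4 and 1 of 7, in the order of the lists above. Over all genes, 3407 of 17411 were higher and 3795 lower in that fit.

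Between diets in WT livers, 25.9% of all genes tested were called higher on CDA-HFD and 25.2% lower. Of the 27 transcription factors, 22 were lower and 1 higher, with *Srebf1*, the lipogenic factor SREBP1, at -2.38 (edgeR adjusted p = 3.27e-06). Of the 18 assembly genes, 14 were lower and 0 higher, among them *Sar1b*, which buds the vesicles that carry lipoproteins from the endoplasmic reticulum, at -1.23 (edgeR adjusted p = 5.77e-06). Of 11 HDL remodelling genes 6 were lower and 1 higher, and of 13 other apolipoprotein genes 6 were lower and 3 higher. Of 13 receptor genes 4 were lower and 3 higher, with *Sort1* at 1.90 (edgeR adjusted p = 0.000195), and of 7 lipase genes 5 were lower and 1, *Lpl*, higher at 2.13 (edgeR adjusted p = 0.000387).

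Between diets in KO livers, 9.19% of all genes tested were called higher on CDA-HFD and 7.85% lower. Of 27 transcription factors 7 were lower and 0 higher, with *Srebf1* at -2.03 (edgeR adjusted p = 0.000748). Of 17 assembly genes 5 were lower and 0 higher, with *Lpcat3*, which remodels phospholipid, at -1.07 (edgeR adjusted p = 0.000161). Of 11 HDL remodelling genes 3 were lower, of 13 receptor genes 1 and of 7 lipase genes 3, with 0 higher in each. Of 13 other apolipoprotein genes 3 were higher and 1 lower, with *Apol9a* at 2.77 (edgeR adjusted p = 0.000407) and *Apol9b* at 2.02 (edgeR adjusted p = 0.00118). *Apol9a* and *Apol9b* are near-identical copies, so reads may be split between them. Without KO CDA-HFD liver 5 the transcription factors were 7 lower and 1 higher, the lipase genes 4 lower and the other apolipoprotein genes 5 higher and 1 lower, and the counts of the remaining 3 lists did not change. Over all genes, 1495 of 16555 were higher and 1386 lower in that fit.

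Likeness over the 20 livers was described by Pearson's r of log2 CPM among 4871 well expressed genes, with no test, since the livers fall into groups. *Apoa2* and *Apoc1* were each other's nearest member (r = 0.985), and the nearest other genes were *Gstk1* for *Apoa2* (r = 0.988) and *Uox* for *Apoc1* (r = 0.989). For *Apoc3* it was *D2hgdh* (r = 0.979), for *Apoe* *Tmbim6* (r = 0.984), for *Apob* *Zfp706* (r = 0.961) and for *Apoa5* *Slc22a18* (r = 0.932). *Apoa1* was nearest to *Glud1* (r = 0.867), *Apoc2* to *Slc37a4* (r = 0.889) and *Apom* to *Pdia5* (r = 0.887). *Apoa4* and *Apom* were least like the other 8, with their nearest members at r = 0.385 (*Apoe*) and r = 0.308 (*Apoc2*), and *Apoa4* was nearest to the tubulin gene *Tubb2a* (r = 0.829). Without KO CDA-HFD liver 5 these r moved by less than 0.05.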

How the data were processed

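Liver RNA of 20 mice was measured by RNA-seq. The authors deposited raw counts per gene symbol, with no normalization, in a table whose last 5 entries tally unassigned reads (no feature 20.75% to 28.8% of reads, ambiguous 0.800% to 1.03%, not unique 18.0% to 28.7%), which entered no fit. Per the labels the build was mm10, and the aligner and counter are not given in the sources used here. The main test was edgeR 4.0.16 in R 4.3.3 (filterByExpr, TMM, quasi-likelihood F test, each fit on the groups compared, the interaction on all 20 livers). DESeq2 1.42.0 was an alternative. Figures used Python 3.11.15 and matplotlib 3.10.9. Further settings were scaling without the 10 genes, RLE size factors, library size only, no filter, at least 10 counts in every library, a replicate block, all 20 livers in one fit and each liver left out. List counts, overlaps, share and likeness without KO CDA-HFD liver 5 were added after seeing the data. Both tools were tested on simulated counts, with dispersions estimated from these livers by edgeR and mean levels of WT livers on WD. Both recovered the fold changes, edgeR held its share of false calls near the threshold, and DESeq2 exceeded it. The limit on false calls was first set for both tools, and DESeq2 was exempted after it failed. Earlier versions of that test used assumed dispersions. The first failed its own rule on recovery, and the next value was picked after that failure. Replicate numbers do not pair livers (r between -0.367 and 0.349), and no 2 libraries of a group were copies (6.94 to 124 times the sampling noise over 40 pairs). The named genes were the 10 genes, *Cideb*, from all pathway lists together the 2 smallest adjusted p in each direction and comparison, the most correlated gene of each, and defining cell markers. The genes and lists were chosen with earlier results of these data known. Annotation was GENCODE vM21 and RefSeq.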

Additional observations from a re-analysis of the deposited data

Results flagged for a closer look

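In 3 of 40 groups of 5 values (10 genes, 4 groups), 1 liver lay far from the others by Dixon's criterion, where chance gives about 2. *Apoa4* in WT CDA-HFD liver 5 was at 2307 CPM against 758 to 1030 CPM in the other 4 (gap over range 0.825). *Apoa5* in KO CDA-HFD liver 5 was at 988 CPM against 1387 to 1532 CPM (0.733), in the liver whose *Gpnmb* level also stood apart. *Apoc3* in WT WD liver 3 was at 907 CPM against 779 to 810 CPM (0.754).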

How the results depend on the processing

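Of 990 values of single genes under alternatives, 924 kept their direction and their side of the threshold, 25 lost a call, 19 gained one and 22 changed sign. In KO against WT on WD the genes called over the whole table went from 12 to 164 with DESeq2, 38 without the filter, 2 with the replicate block and 26 with all 20 livers in one fit, and 1 to 33 when each liver was left out. DESeq2 called 1 of the 10 genes, *Apoa4*, and it made more false calls than its threshold allows on simulated counts, whose dispersions came from edgeR. In KO against WT on CDA-HFD the count went from 2664 to 1725 with library size only, 4144 with DESeq2 and 4169 with all 20 livers, and 709 to 7202 with each liver left out. The number of the 10 called there went from 2 to 0 with library size only, 1 without the filter, 1 with the replicate block, 4 with all 20 livers and 0 to 6 with each liver left out. It was 0 without WT CDA-HFD liver 1, 3 or 5 or KO CDA-HFD liver 1, 2, 3 or 4, and 1 without WT CDA-HFD liver 2. Between diets in WT livers the 8 of 10 called became 7 to 10 over all alternatives, 10 without WT CDA-HFD liver 2. Between diets in KO livers the count went from 2792 to 4478 with all 20 livers, and ran from 1568 to 2881 with each liver left out, at 1568, 1769 and 1776 without KO WD liver 2, 4 or 5. For the interaction it went from 99 to 44 with library size only, 434 with DESeq2, 52 without the filter and 63 with the replicate block, and 35 to 2139 with each liver left out, of which 2139 without KO CDA-HFD liver 5. The number of the 10 called was then 0 to 1. The cause of these changes was not tested. With library size only, KO against WT on CDA-HFD was -0.033 for *Apoa1* and -0.17 for *Apoa4*, and CDA-HFD against WD in KO livers was 0.11 for *Apoa1*, 0.099 for *Apoa4*, 0.15 for *Apoa5* and 0.13 for *Apoc2*. With the replicate block the last comparison was 0.053 for *Apoa4*. Leaving out livers gave -0.061 to 0.071 for *Apoe* and -0.17 to 0.027 for *Apoa5* in KO against WT on WD, and -0.056 to 0.47 for *Apoa4* on CDA-HFD. Between diets in KO livers it gave -0.22 to 0.0084 for *Apoa1*, -0.36 to 0.13 for *Apoa4*, -0.18 to 0.015 for *Apoa5* and -0.31 to 0.035 for *Apoc2*. None of these sign changes concerned a called value. Depth limits *Apoc2*, with 37 to 138 counts per liver.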
